A study of Xenopus tropicalis with 12 samples.

Results

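The intestine of Xenopus tropicalis tadpoles labelled as lacking thyroid hormone receptor alpha (TRα) was compared with that of wild-type tadpoles, both under thyroid hormone (T3). The comparison sets the 3 RNA-seq libraries labelled T3Homo against the 3 labelled T3WT, 6 of the 12 libraries of the series, and was chosen by the column labels of the count table. By those labels T3Homo is TRα(-/-) intestine after 10 nM T3 for 18 h, and T3WT is wild-type intestine after the same treatment. The other libraries are contWT, wild type without T3, and contHomo, TRα(-/-) without T3, with 3 libraries each. All tadpoles shared parents and were at stages labelled 52 to 54. RNA of several tadpoles was merged into 1 pool per group, and the 3 libraries are technical repeats made from that pool. P-values describe technical spread, and a difference between genotypes cannot be told apart from a difference between pools.

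The sample titles contradict the T3WT label. They give T3WT as untreated TRα(-/-) intestine and contHomo as T3-treated wild type, and they give T3Homo and contWT the same identity as the column labels. Under the titles, T3Homo against T3WT is the response of TRα(-/-) intestine to T3. The gene that encodes TRα would check the labels. The deposited table holds gene identifiers without names, and the reference gene table gave a symbol for 0 of the nuclear identifiers, so this check could not be run. Genes are named below where the tables allow it, and group names are column labels throughout.

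T3 acts through the nuclear receptors TRα and TRβ, which bind DNA at hormone response elements together with retinoid X receptors. Without hormone these receptors recruit corepressors and hold target genes down, and with hormone they recruit coactivators. In the tadpole intestine, rising T3 at metamorphosis triggers the death of larval epithelium and the formation of adult epithelium from stem cells. TRα is expressed before metamorphosis, and the gene of TRβ is itself induced by T3.

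Library totals were 34322099 to 38421597 counts in T3WT and 40295245 to 44755390 in T3Homo. Levels are given as CPM, the counts divided by the library size and its TMM scaling factor and brought to a common total. This factor was 1.21 in the T3WT libraries and 0.960 to 0.964 in T3Homo. T3WT stands apart from the other 3 groups, whose factors were 0.912 to 0.964. The T3WT libraries held 15236 to 15327 genes with at least 1 count and the T3Homo libraries 14760 to 14836. Every result below rests on the T3WT libraries, so levels in contWT and contHomo are set beside the main ones. In bulk RNA, fewer cells of a type and less RNA per cell cannot be told apart. The markers of other tissues and cell types, and the defining markers of intestine, could not be read for want of gene names.

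Among differences of at least 2-fold, lower genes outnumbered higher genes in T3Homo intestine, while by adjusted p alone the split was near even. Of 13172 genes tested, 2125 (16.1%) were called, 1761 (13.4%) lower and 364 (2.76%) higher in T3Homo than in T3WT, where a call needed an adjusted p below 0.05 in edgeR's quasi-likelihood test and at least a 2-fold change. By adjusted p alone, 5127 genes (38.9%) were lower and 4899 (37.2%) higher. At total-count scaling the split was 2663 lower and 182 higher, so that higher genes made up 6.40% of the calls in place of 17.1%. The median log2 fold change over the genes tested was -0.35 at that scaling and -0.02 with TMM factors. The lower genes were mostly weakly expressed. Together they took 2.87 to 2.89% of the counts in the T3WT libraries and 0.713 to 0.716% in T3Homo, and 1.16 to 1.19% in contWT and 0.912 to 0.917% in contHomo. The higher genes took 3.35 to 3.37% of the counts in T3WT and 6.51 to 6.60% in T3Homo, with 5.37 to 5.44% in contWT and 6.40 to 6.46% in contHomo. In both sets the T3Homo libraries were thus nearest to contHomo.

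**Figure D1:**
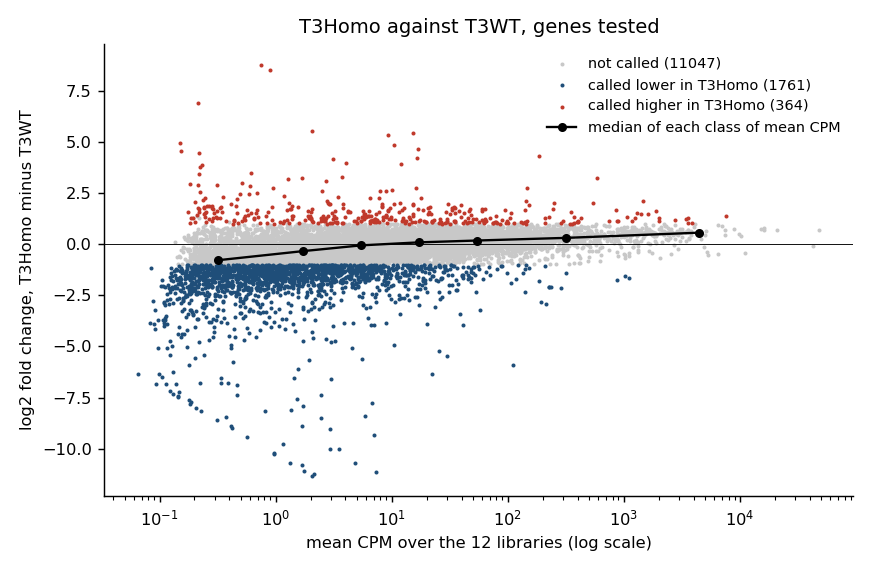
Log2 fold change of T3Homo minus T3WT (vertical axis) against the mean CPM over the 12 libraries (horizontal log axis) for each gene tested, coloured by call, with the median of each class of mean CPM in black. The 1761 lower genes crowd at low CPM, and the median of a class goes from -0.79 below 1 CPM to 0.56 at 1000 CPM and above. Genes of low mean can pass the filter through 1 group alone.

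The direction of the difference went with the level of the gene. CPM is not scaled by gene length, so these classes sort genes by read count. Among 2037 genes with a mean below 1 CPM over the 12 libraries, 41.3% were called lower and 4.12% higher, with a median log2 fold change of -0.79. The filter on low counts keeps a gene that passes in 1 group alone. Entry into this class through T3WT alone favours lower calls, so its shares and median are a description. From 10 to 30 CPM the shares were 4.07% and 1.79%, with a median of 0.09. At 1000 CPM and above, 2 of 188 genes were lower and 16 higher, with a median of 0.56. At total-count scaling the medians of these 3 classes were -1.12, -0.25 and 0.23, so the middle class changed sign. The 16 abundant genes that were higher rose 2.05 to 4.28-fold, to between 594 and 7644 CPM in T3Homo, and 15 of the 16 had their lowest group mean in T3WT. Their choice by the same libraries favours that count, and T3WT had the lowest mean for 4309 of the 13172 genes tested. In the groups without T3 by column label, 1 of the 16 was called higher in contHomo than in contWT, beside 3.11% of the genes tested. The 2 abundant genes that were lower fell from 1510 and 2140 CPM in T3WT to 486 and 715 CPM in T3Homo, in the order of their levels within each group. The first had 1342 CPM in contWT and 1091 in contHomo, and the second 816 and 428 CPM.

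The shares also varied with gene structure, over a narrower range. Lower calls were made for 18.9% of 465 single-exon genes, 11.1% of genes with 9 to 16 exons and 14.2% of genes with 17 or more. The higher share was 6.02% of single-exon genes and 1.89% of those with 17 or more exons. By summed exon length, genes of 4000 bases and over had 228 lower and 14 higher calls among 1295, and those under 500 bases had 61 and 26 among 529.

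T3WT was more often the extreme group than T3Homo. Of the 1761 lower genes, T3WT had the highest of the 4 group means for 1544, and T3Homo had the lowest for 1044. Of the 364 higher genes, T3WT had the lowest mean for 325 and T3Homo the highest for 183. The choice of genes by the T3Homo and T3WT libraries favours both counts, so they are a description. Among the genes tested, T3WT had the highest mean for 4955 and the lowest for 4309, and T3Homo the highest for 2821 and the lowest for 2871. The median lower gene had a log2 fold change of -1.56 from T3WT to T3Homo, of 1.07 from contWT to T3WT and of -0.30 from contHomo to T3Homo, comparisons that share libraries.

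The contHomo and contWT libraries share no library with this comparison and carry the same genotype contrast by column label. In them 787 genes (5.97%) were called, of which 378 (2.87% of those tested) were lower and 409 (3.11%) higher in contHomo. Of the genes at least 2-fold lower in T3Homo, 13.1% were also called lower in contHomo. The share was 27.1% of the 479 genes at least 4-fold lower, 46.4% of the 194 at least 8-fold lower and 52.4% of the 105 at least 16-fold lower. Opposite calls were made for 5.34%, 6.89%, 8.76% and 3.81% of these genes. Of the 56 genes at least 4-fold higher in T3Homo, 22 (39.3%) were called higher in contHomo and 5 lower. Across the 13172 genes the log2 fold changes of these comparisons had a Pearson correlation of 0.33, where genes are not independent replicates. Under the titles, the 2 groups labelled Homo are both T3-treated and the 2 labelled WT both untreated.

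The rule for single genes took the 2 largest rises and the 2 largest falls by fitted log2 fold change, with at least 5 CPM in the higher group and libraries that did not overlap, and no more identifiers are given because the files do not pair them with names. No role can be stated for these 4 genes. None overlaps another gene of the table. The fitted change of a gene with 0 counts depends on the prior count, so the order of the falls is not an order of measured folds. Set against a floor of 3 counts in T3Homo, 6 other genes with 1 to 3 counts there had higher ratios, 405 to 1053, than the 2 falls described.

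ENSXETG00000017935 had the largest rise. This gene of 11 exons lies on the minus strand of scaffold GL172850.1 from 1150782 to 1167309. It stood at 0.432, 0.344 and 0.463 CPM in the T3WT libraries and at 17.4, 18.0 and 17.5 CPM in T3Homo. In contWT it was at 17.8, 16.8 and 18.2 CPM and in contHomo at 25.1, 25.3 and 27.0 CPM. T3WT was thus the low group, and T3Homo stood with contWT. The T3Homo level was 42.7-fold that of T3WT (5.41 ± 0.10 in log2 units with its SE, edgeR adjusted p = 7.74e-67).

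ENSXETG00000023975, on the plus strand of GL173503.1 with 19 exons, from 197718 to 217886, had the same form. Its levels were 0.408, 0.236 and 0.419 CPM in T3WT and 13.4, 15.3 and 14.6 CPM in T3Homo. They were 10.7 to 12.05 CPM in contWT and 9.72 to 11.8 CPM in contHomo, ranges that overlap. The T3Homo level was 40.8-fold that of T3WT (5.34 ± 0.12 in log2 units with its SE, edgeR adjusted p = 7.84e-61).

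ENSXETG00000031155 was the first of the falls by the rule. It has 4 exons on the plus strand of GL174116.1 from 11508 to 13300. Counts were 344, 399 and 346 in the T3WT libraries, or 8.25, 8.57 and 7.64 CPM, and 0 in each T3Homo library. The contWT libraries held 1, 2 and 1 counts and the contHomo libraries 0, 0 and 1. The level in T3WT was at least 335-fold higher than in T3Homo, against a floor of 3 counts over the group (edgeR adjusted p = 2.16e-53). This gene lies in a run of 5 genes with recurring exon lengths, given below, so its reads may be shared with neighbours.

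ENSXETG00000006294, with 18 exons on the plus strand of GL173157.1 from 508666 to 536229, was counted in both groups labelled WT. It had 329, 370 and 342 counts in T3WT and 26, 27 and 31 in contWT, or 7.80 ± 0.218 and 0.816 ± 0.114 CPM (SD, n = 3 technical libraries). All 6 contHomo and T3Homo libraries had 0 counts. It was at least 320-fold higher in T3WT than in T3Homo (edgeR adjusted p = 3.76e-52), and at least 29.0-fold higher in contWT than in contHomo.

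**Figure D2:**
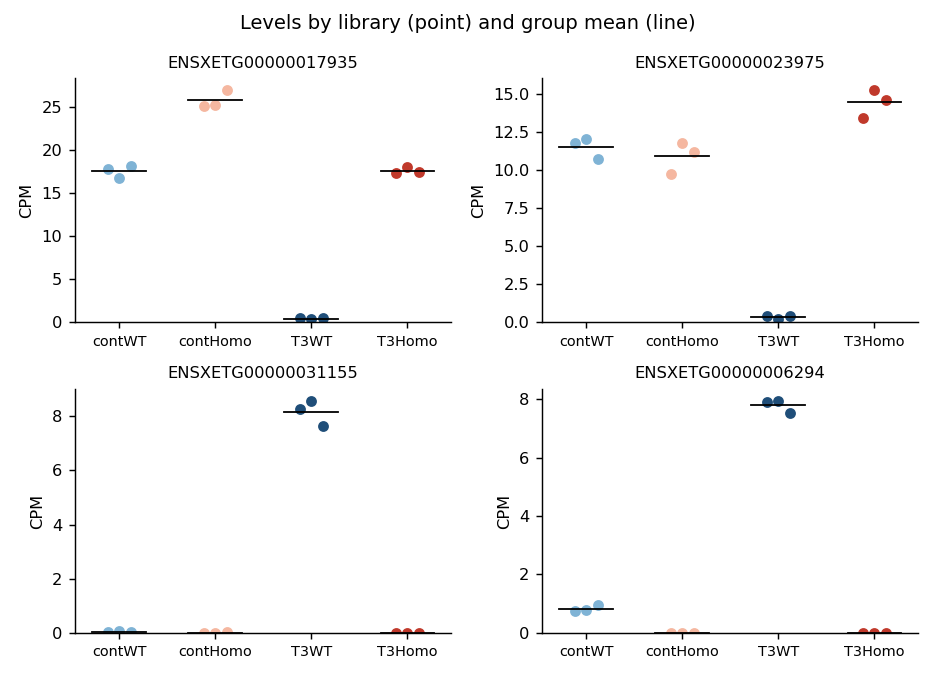
CPM of the 4 identifiers in each library (points) with the group mean (line), on linear axes from 0. The genes of the upper row are low in T3WT and between 9.72 and 27.0 CPM elsewhere, and those of the lower row are high in T3WT and at 0 CPM in T3Homo.

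Presence in T3WT with near absence in T3Homo was found for 30 genes, taken as at least 1 CPM in T3WT and at most 3 counts summed over the T3Homo libraries. The reverse was found for 2. The 30 genes lie on 25 scaffolds, with T3WT levels of 1.06 to 25.6 CPM and a median of 4.28, which is 43.6 to 1053 times the floor of 3 counts over T3Homo. In T3Homo, 13 of the 30 had 0 counts. Each of the 30 also had a higher mean in T3WT than in contWT, where their summed counts per gene ran from 0 to 378. The choice of the 30 by their T3WT level favours this, so it is a description. Among the 13172 genes tested, T3WT had the highest of the 4 group means for 4955. In contHomo 28 of the 30 had at most 3 counts, and the highest of the 30 had 10. The filter keeps a gene that passes in T3WT alone, and the share among all genes tested was not computed. That count of 28 is therefore a description. In contHomo against contWT, 17 of the 30 were called lower, against 2.87% of the genes tested, and 0 were called higher (edgeR). For 9 of the 30, contWT too had at most 3 counts.

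The libraries of contWT and contHomo showed part of the same pattern by themselves. By these limits contWT held 9 genes that were nearly absent from contHomo. Of these, 7 were among the 30, which is 77.8% of the 9 and 23.3% of the 30. These 7 genes, on 7 scaffolds, had 1.01 to 3.66 CPM in contWT and 2.84 to 25.6 CPM in T3WT, 1.63 to 7.38-fold higher, and at most 3 counts in contHomo and 2 in T3Homo. In the other direction 1 gene was present in contHomo and nearly absent from contWT, and it is 1 of the 2 found in T3Homo and not in T3WT. It was chosen after its values were seen and lies on the minus strand of GL172795.1 from 239287 to 240312. Its counts were 66, 48 and 59 in T3Homo, 53, 49 and 64 in contHomo, 1, 0 and 2 in contWT and 0 in each T3WT library. The 2 groups labelled Homo had similar levels of it, 1.405 ± 0.212 CPM in T3Homo and 1.55 ± 0.124 in contHomo.

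The other of these 2 genes, on the plus strand of GL173157.1 from 468887 to 470857, is the next tested gene before ENSXETG00000006294, 37.8 kb away, and also was chosen after its values were seen. It had 47, 45 and 52 counts in T3Homo and 0 in each T3WT library, at least 52.2-fold higher. In contHomo it had 46, 49 and 54 counts and in contWT 28, 36 and 38. T3WT was thus the 1 group without counts of this gene, while its neighbour was missing from the 2 groups labelled Homo. The table annotates 1 further gene between them, which was not tested.

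**Figure D3:**
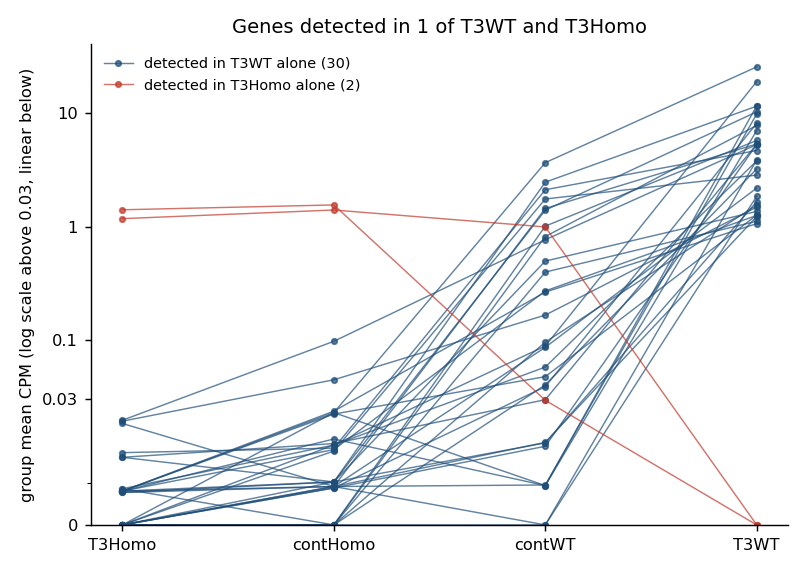
Group mean CPM (vertical axis, logarithmic above 0.03 and linear below) of the 30 genes detected in T3WT and not in T3Homo (blue) and the 2 detected in T3Homo and not in T3WT (red), each gene a line across the 4 groups. The blue lines stay at or below 0.0970 CPM in both groups labelled Homo and spread between 0 and 3.66 CPM in contWT.

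Of the 30 genes, 8 lie next to another of the set among the tested genes, at 3 places. On GL172703.1, 3 neighbours from 1789028 to 1840634 had a summed level of 10.96, 10.7 and 10.8 CPM in T3WT and 0 counts in T3Homo, with 4 counts in contWT and 2 in contHomo. On GL172782.1, 2 neighbours from 1269952 to 1322112 had 15.7, 15.5 and 15.1 CPM in T3WT and 1 count in T3Homo, with 7 and 4 in contWT and contHomo. The third place, on GL174116.1, holds ENSXETG00000031155. These places were read in T3WT almost alone.

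Longer runs of neighbouring genes were lower in T3Homo, and 0 runs were higher. With at least 4 neighbours among the genes tested called in the same direction, there were 11 runs, which hold 52 genes or 2.95% of the lower calls. Of all genes tested, 13.4% were called lower and 2.76% higher. These shares favour runs of lower calls, so the split of runs by direction is a description. The genes of a run share a stretch of scaffold, and some are copies or overlap, so they do not count as separate observations. The runs differed in how contWT and contHomo stood.

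The run with the highest level lay on GL173192.1 from 278491 to 703636, with 6 genes on the minus strand that have 11 to 49 exons. Its summed level was 787, 778 and 767 CPM in the T3WT libraries and 136, 137 and 138 CPM in T3Homo, a ratio of 5.68. In contWT it was 312 to 324 CPM and in contHomo 392.5 to 404 CPM, so both lay between T3Homo and T3WT. The 6 genes had log2 fold changes of -2.82 to -1.31 in T3Homo against T3WT. In contHomo against contWT 0 of them were called lower and 1 higher, beside 2.87% and 3.11% of the genes tested. Exon lengths recurred within this run, where 77.6% of exon lengths were found in another member, against a median of 19.8% in windows of 6 neighbours. There were 2 overlapping pairs of genes among them on 1 strand, so levels of single members are uncertain and the sum is given.

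The run on GL173371.1, 4 genes from 246262 to 294833, behaved likewise. Its summed level was 37.6, 37.5 and 38.8 CPM in T3WT, 6.21, 5.56 and 6.38 CPM in T3Homo, and 17.7 ± 0.523 and 17.1 ± 0.310 CPM in contWT and contHomo. The T3WT level was 6.27-fold that of T3Homo and 2.15-fold that of contWT. This run has 1 overlapping pair on opposite strands, whose reads cannot be separated without a stated strand setting, and 44.4% of its exon lengths recur, against a median of 11.8% in windows of 4.

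Other runs, with contWT sums 0.811 to 1.21 times those of contHomo, lay on GL172800.1, GL173117.1, GL173198.1, GL172728.1 and GL172798.1, with 4 genes each. On GL172728.1 the sums were 3.17 to 3.46 CPM in contWT and 2.47 to 2.93 CPM in contHomo, without overlap. On GL173198.1 the members went both ways in contHomo against contWT, with log2 fold changes of -1.08 to 0.86 and 0 called. On GL172800.1, from 905574 to 1436679, the sum was 57.6 to 60.3 CPM in T3WT and 25.1 to 25.2 CPM in T3Homo, with 37.8 ± 1.57 CPM in contWT and 39.4 ± 0.597 in contHomo. There 1 gene made up 79.6% of the T3WT sum, so the like sums are mostly those of this gene. In contHomo against contWT the 4 genes had a median log2 fold change of -0.47, and 0 were called lower. On GL173117.1, from 386499 to 518854, it was 15.7 to 15.8 CPM in T3WT and 3.75 to 4.57 CPM in T3Homo, with 7.24 ± 0.232 CPM in contWT and 6.71 ± 0.415 in contHomo. Ratios of T3WT to T3Homo in these 5 runs were 2.34 to 3.73.

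A second kind of run had a summed level that was low in both groups labelled Homo. On GL172765.1, 4 genes from 1840989 to 1951497 summed to 5.54, 4.73 and 5.85 CPM in T3WT and 0.672, 0.967 and 0.878 CPM in T3Homo, a ratio of 6.40. Their level was 4.85 to 5.65 CPM in contWT, overlapping that of T3WT, and 1.29 to 1.81 CPM in contHomo, 3.57-fold below contWT. Of these 4 genes, 1 was called lower in contHomo against contWT, and 1 gene made up 72.1% of the T3WT sum. On GL173193.1, 4 genes from 511162 to 614718 summed to 23.2 to 23.9 CPM in T3WT and 3.36 to 4.22 CPM in T3Homo. There contWT stood at 18.3 to 20.9 CPM and contHomo at 7.49 to 8.35 CPM. Of these genes 1 was called lower in contHomo against contWT, and 1 gene made up 93.0% of the T3WT sum. The 9-gene run on GL172646.1, from 5071172 to 5255344, fell from 76.4 ± 0.994 CPM in T3WT to 22.8 ± 1.09 CPM in T3Homo, with 131 ± 1.33 CPM in contWT and 24.7 ± 0.813 CPM in contHomo. This sum joins genes of unlike form. The last members by position, from 5215818 to 5221948 and from 5230880 to 5255344, were highest in T3WT, at 18.9 and 20.3 CPM. They had 6.99 and 7.69 CPM in T3Homo, 6.90 and 5.72 in contWT and 5.22 and 3.96 in contHomo. Of its 9 genes, 7 were called lower in contHomo against contWT, and these last members were not. Among the genes tested, 2.87% were called lower in that comparison, the share to set beside each of these counts.

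The 5-gene run on GL174116.1, from 4232 to 63176, was counted 3269 times in T3WT and 5 times in T3Homo, with 10 counts in contWT and 5 in contHomo. Its summed level was 25.4, 23.5 and 24.6 CPM in T3WT. No tested gene flanked it on the scaffold. Exon lengths recurred in this run too, 58.3% of them, against a median of 16% in windows of 5. Its members, ENSXETG00000031155 among them, may therefore share reads. For the other 10 runs, 3 to 6 tested flanking genes had median log2 fold changes of -0.46 to 0.32. A run ends at the first tested gene that was not called lower. The nearest flanking genes are thus uncalled or higher by construction, and these medians are a description.

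**Figure D4:**
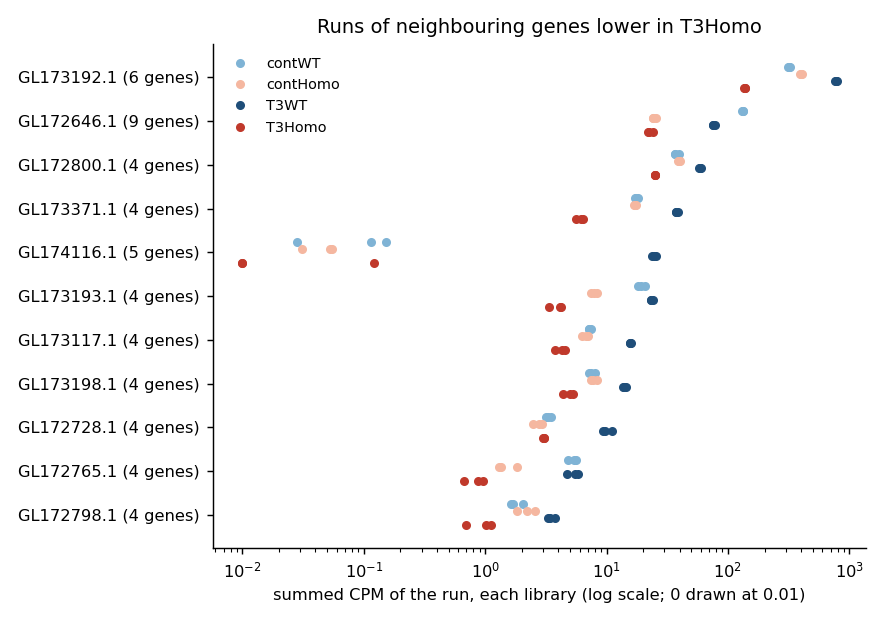
Summed CPM of the 11 runs (rows) in each library (points, horizontal log axis, with 0 drawn at 0.01), coloured by group. T3WT points lie to the right of T3Homo points in each run, and contHomo points lie near T3Homo on GL172646.1 and GL172765.1 and near contWT on GL173192.1 and GL173371.1.

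The named genes are those of mitochondrial DNA, identified because their start and end match the mitochondrial genes of the reference table. They encode subunits of NADH dehydrogenase (complex I), cytochrome b of complex III, cytochrome c oxidase (complex IV) and ATP synthase, the membrane complexes of oxidative phosphorylation. Their 13 protein-coding genes took 2.97, 3.10 and 3.03% of counts in the T3WT libraries and 1.70, 1.70 and 1.72% in T3Homo. The shares were 1.91 to 1.96% in contWT and 1.85 to 1.89% in contHomo, so T3WT was high and T3Homo lowest. All 13 genes fell in T3Homo at an adjusted p below 0.05, with a median log2 fold change of -0.54. They lie together on the mitochondrial sequence, so they do not count as 13 separate observations. None reached the 2-fold threshold of a call with TMM factors, while at total-count scaling ND4 and ND4L, both at -1.03, did. By p alone 38.9% of the genes tested were also lower. The 13 were also lower at an adjusted p below 0.05 with RLE and total-count scaling, with medians of -0.52 and -0.87.

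Among complex I subunits, ND4, from 10271 to 11648 of the mitochondrial sequence, went from 536 ± 12.3 CPM in T3WT to 331 ± 9.96 in T3Homo (SD, n = 3 technical libraries), a change of -0.70 ± 0.02 in log2 units with its SE (edgeR adjusted p = 2.44e-55). It was at 431 ± 16.7 CPM in contWT and 365 ± 8.70 in contHomo. ND2, of the same complex, went from 325 ± 11.3 to 248 ± 4.46 CPM, a log2 fold change of -0.39, and stood at 345 ± 13.2 CPM in contWT and 284 ± 7.39 in contHomo. Genes that overlap a neighbour on the mitochondrial sequence, ND4 with ND4L, ATP6 with ATP8 and ND5 with ND6, may share reads. COX2, a subunit of cytochrome c oxidase, fell from 6710 ± 164 to 4581 ± 47.6 CPM, with 4926 ± 134 in contWT and 5024 ± 193 in contHomo. COX3, of the same complex, had the smallest difference of the 13, a log2 fold change of -0.38. CYTB, the cytochrome b of complex III, went from 1376 ± 21.9 to 914 ± 16.99 CPM, with 1116 ± 23.8 in contWT and 1040 ± 15.7 in contHomo.

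**Figure D5:**
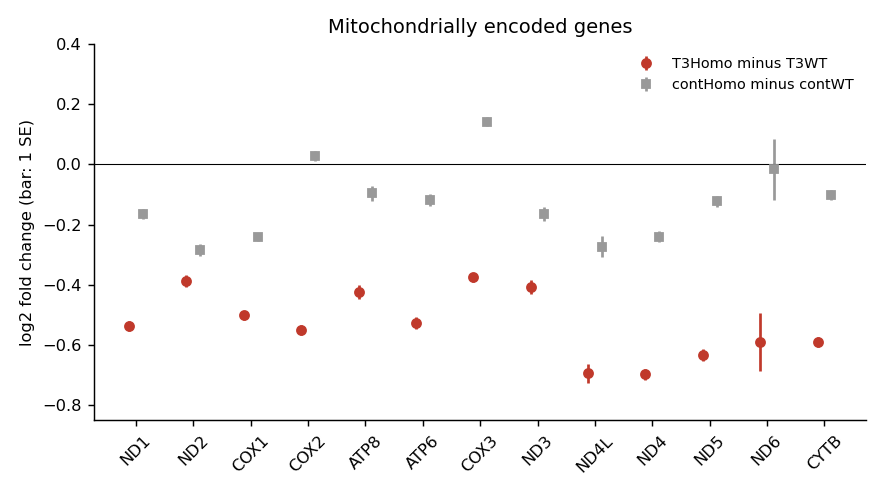
Log2 fold change with 1 SE (bars) of the 13 mitochondrially encoded proteins' genes, T3Homo minus T3WT in red and contHomo minus contWT in grey. The red points lie between -0.70 and -0.38, each below its grey point.

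In contHomo against contWT the same 13 genes differed less, with COX3 higher at a log2 fold change of 0.14 and ND2 lower at -0.28. The difference between these comparisons, the interaction, passed at an adjusted p below 0.05 for all 13 with edgeR, each negative, from -0.58 for COX2 to -0.11 for ND2. ND2 did not pass with DESeq2 (adjusted p = 0.0745). By p alone, 30.3% of the genes tested had a negative interaction and 34.1% a positive one. With at least a 2-fold difference as well, 15.6% of genes passed, 1632 negative and 427 (3.24%) positive. For ENSXETG00000017935 the interaction was 4.86 ± 0.13 and for ENSXETG00000023975 5.43 ± 0.15 (SE, edgeR adjusted p = 3.45e-55 and 2.55e-53). Both genes were chosen by their T3Homo minus T3WT difference, which is part of the interaction. That choice favours a large interaction, so these values are a description. For ENSXETG00000006294, with 0 counts in both groups labelled Homo, the fitted interaction did not pass with edgeR (adjusted p = 0.9998) or DESeq2 (adjusted p = 0.0663). Its edgeR SE was 6686 log2 units, because 0 counts in both groups leave their difference undefined. The edgeR result therefore cannot decide whether there is an interaction.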

How the data were processed

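RNA-seq libraries of tadpole intestine, 3 for each of 4 groups, were compared by the column labels of the deposited count table. Per the submitters' processing notes, the authors made these counts with STAR 2.5.3a and featureCounts 1.4.6-p3. Build, annotation, strand setting and handling of multiply mapping reads: not given in the sources used here, so near-identical or overlapping genes may share counts. The table holds raw counts for 19921 genes, with library totals from 34322099 to 44755390. The annotated gene length, deposited in another column with the exon positions, was used to sort genes by length.

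Genes were filtered with filterByExpr, scaled by TMM and tested with edgeR 4.0.16 in R 4.3.3 by the quasi-likelihood test, with 1 coefficient per group over the 12 libraries and Benjamini-Hochberg adjustment over 13172 genes. The interaction is the T3Homo minus T3WT difference less the contHomo minus contWT difference. DESeq2 1.42.0 was an alternative. The procedure was tested on simulated counts with a common dispersion and set fold changes in some genes. These counts were built without a difference between groups in the TMM factor, so that test does not cover the one seen in T3WT. Pairs of libraries within T3WT and within T3Homo differed by more than sampling noise in chi-square tests, so counts were not summed before the fit. Pairs within contWT and contHomo were not tested in this way. The libraries remain technical repeats of 1 pool and are not independent samples. P-values measure technical spread only. Single genes were named by fold, at least 5 CPM in the higher group and no overlap between libraries. A run is at least 4 neighbouring tested genes called the same way. Detection in 1 group is at least 1 CPM against at most 3 counts. Bounds use a floor of 3 counts over a group and cover counting error only. Exon lengths were compared by their exact value.

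The comparison and the lists were chosen with earlier results of these data known. The 12 gene lists and 15 marker lists could not be run without gene names. The 13 mitochondrial genes were named from the reference table of assembly UCB_Xtro_10.0 by equal start and end, and 0 identifiers matched it by ID.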

Additional observations from a re-analysis of the deposited data

Results flagged for a closer look

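For each result here the difference between T3Homo and T3WT was unlike that between contHomo and contWT, by edgeR's interaction test over the 12 libraries. The groups carry contradictory labels, so the meaning of an interaction depends on which labels are right, and that was not tested. The interaction was called for 2059 of 13172 genes (15.6%), 1632 lower and 427 higher, at an adjusted p below 0.05 and at least a 2-fold difference.

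ENSXETG00000017935 had an interaction of 4.86 and ENSXETG00000023975 of 5.43 on the log2 scale, both with T3WT as the low group. The choice of single genes by their T3Homo minus T3WT difference, which is part of the interaction, favours large values. ENSXETG00000031155 had a fitted interaction of -9.57, a value that depends on the prior count because T3Homo had 0 counts and contHomo 1. Without contHomo replicate 3, which held that count, it was -7.60 and did not pass (edgeR adjusted p = 0.9997). The SE of that fit was 15578, since both groups labelled Homo then had 0 counts, so it cannot decide.

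The 13 mitochondrial genes, which do not count as separate observations, had negative interactions. In complex I they were -0.37 for ND1, -0.11 for ND2, -0.24 for ND3, -0.42 for ND4L, -0.46 for ND4, -0.51 for ND5 and -0.57 for ND6. In cytochrome c oxidase they were -0.26 for COX1, -0.58 for COX2 and -0.52 for COX3. ATP6 had -0.41, ATP8 -0.33 and CYTB -0.49. T3WT also had the largest share of counts in these genes, 2.97 to 3.10% against 1.70 to 1.96% elsewhere.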

How the results depend on the processing

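The values of the named genes and runs kept their sign under the alternatives run. The median of genes from 10 to 30 CPM went from 0.09 to -0.25 with total-count scaling, and that of all genes tested from -0.02 to 0.004 with RLE factors and with DESeq2. Interaction calls were 427 higher and 1632 lower, and without a fold threshold 4486 higher and 3985 lower. Total-count scaling gave 182 higher and 2663 lower genes and 27 runs. A minimum mean of 5 CPM, which tests fewer genes, gave 596 calls, 144 higher and 452 lower, 609 interaction calls, 2 runs, and 2 genes detected in T3WT and 0 in T3Homo alone. Testing against a 2-fold change with glmTreat gave 1340 calls, 232 higher and 1108 lower, 1016 interaction calls and 5 runs. Without a fold threshold there were 10026 calls, 4899 higher and 5127 lower, 8471 interaction calls and 330 runs. At 4-fold there were 535 calls, 56 higher and 479 lower, 609 interaction calls and 3 runs. Runs numbered 42 with at least 3 neighbours and 3 with at least 5. With detection set at 2 CPM, 20 genes were detected in T3WT alone and 0 in T3Homo alone, and at 0.5 CPM 43 and 2. Without the 100 most abundant genes these numbers were 42 and 2. Leaving out each of the 12 libraries in turn, the 6 contWT and contHomo ones added after seeing the data, gave 2183 to 2254 calls, 378 to 391 higher, 1800 to 1872 lower, 2021 to 2093 interaction calls, 10 to 13 runs and 29 to 34 genes detected in T3WT alone. These fits tested more genes, 13277 to 13367 in place of 13172, and each gave more calls than the 2125 of the main fit. DESeq2 gave 2093 calls, RLE factors 2120, no filter 2551 and a fit of the 6 libraries 2056. The interaction of ND2 was -0.10 with DESeq2 and did not pass. Without contHomo replicate 3 the interaction of ENSXETG00000031155 was -7.60 with an SE of 15578, so that fit cannot decide (edgeR adjusted p = 0.9997).

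With the replicate number as a block there were 2125 calls, 363 higher and 1762 lower, 2048 interaction calls and 11 runs. Deviations of same-numbered libraries correlated at -0.0235 to 0.0235, so the numbers do not pair them. The gene lists were not run, for want of names, nor was the interaction on 6 libraries. Depth limits genes under 1 CPM, and the floor of 3 counts was 0.0225 CPM in T3WT and 0.0243 CPM in T3Homo.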
